A study of Mus musculus with 12 samples.

Results

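Aminoacyl-tRNA synthetases are the enzymes that load each amino acid onto its tRNA, and 36 of their genes, 20 for cytosolic and 16 for mitochondrial enzymes (symbols ending in 2), are described here in the mouse liver at 8 h of ER stress. The members were found by symbol among the probesets that the platform annotation gives to exactly 1 gene, with the brightest probeset standing for a gene. That left 35 of the 36 genes, out of 18193 genes on the arrays. *Dars*, for the cytosolic aspartate enzyme, had no probeset of this kind and was not used.

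The 12 animals, each on an Affymetrix array of its own, formed 4 groups of 3. These were Atf6a-/- mice killed 8 h after an intraperitoneal injection of 2 mg/kg tunicamycin (TM) in 150 mM dextrose, Atf6a-/- mice given the dextrose alone, called vehicle, and wild-type (+/+) mice with TM and with vehicle. RNA came from liver homogenate, so all cell types of the liver were mixed and fewer cells of a type cannot be told apart from less RNA per cell. The labels give age and gender as variable and name no strain. Values are RMA intensities on the log2 scale, so a change of 1 is a 2-fold change, and a member was called higher or lower when limma's adjusted p (Benjamini-Hochberg over 45037 probesets) was under 0.05 and the change over 1.5-fold.

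TM blocks N-linked glycosylation, so that unfolded proteins build up in the endoplasmic reticulum (ER). The ER kinase PERK then phosphorylates eIF2α and favours translation of ATF4, a transcription factor known to raise genes of amino acid supply, including cytosolic tRNA synthetases. ATF6α is another ER stress sensor, whose released cytosolic part activates genes of ER chaperones. Mitochondria translate the few proteins of their own genome with a separate set of synthetases, which are encoded in the nucleus and imported. Most amino acids have a gene for either compartment. *Gars* and *Kars* are exceptions, as their products serve both, and glutamine is loaded in mitochondria through glutamate by *Ears2* and an amidotransferase.

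The arrays were alike in quality, with a mean correlation to the other arrays of their group from 0.987 to 0.994. The lowest belonged to wild-type vehicle replicate 2, which for several members lay apart from the rest of its group. In each group 1 array had Y-linked signal, and in wild-type vehicle it was this replicate 2. Sex and other properties of that animal cannot be told apart. *Atf6*, the deleted gene, read 10.15 ± 0.37 in Atf6a-/- livers with TM and 7.33 ± 0.41 with vehicle, against 10.97 ± 0.21 in wild-type livers with TM and 9.04 ± 0.38 with vehicle (SD, n = 3 each). The genotypes differed by -0.82 with TM (adjusted p = 0.0905) and -1.71 with vehicle (adjusted p = 0.184), neither of which passed, and which part of the transcript the probeset reads was not analysed here. The hepatocyte markers *Tat* and *Hnf4a* were called higher with TM in Atf6a-/- livers and *Tat* alone in wild-type livers, of 7 measured, and the summed level of the list was 17.15 to 17.19 in Atf6a-/- livers with TM, 17.04 to 17.07 with vehicle, 17.09 in all wild-type livers with TM and 17.04 to 17.05 with vehicle.

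The question of the main comparison is which synthetase genes respond to TM in each genotype. Cytosolic synthetases rose with TM. In Atf6a-/- livers 17 of 19 measured members were called higher and 0 lower, where 13.1% of all genes were called higher and 8.21% lower. In wild-type livers the count was 13 of 19 higher and 0 lower, with 8.92% of all genes called higher and 6.9% lower. The median change was 1.06 in Atf6a-/- and 0.85 in wild-type livers, beside -0.10 and -0.06 over all genes. The mitochondrial members moved less as a group, with 7 of 16 called higher and 1 lower in Atf6a-/- livers, 3 higher and 1 lower in wild-type livers, and medians of 0.30 and 0.11. Read by whether the 3 TM arrays all lay above the 3 vehicle arrays, 18 of 19 cytosolic and 10 of 16 mitochondrial members did so in Atf6a-/- livers (20.8% of all genes), and 16 of 19 and 6 of 16 in wild-type livers (16.8% of all genes). All 3 lay below in 0 of 19 cytosolic and 3 of 16 mitochondrial members in Atf6a-/- livers (29.6% of all genes). In wild-type livers the counts below were 0 of 19 and 4 of 16 (22.5% of all genes). For mitochondrial members the counts below were therefore under or near the share over all genes.

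**Figure D1:**
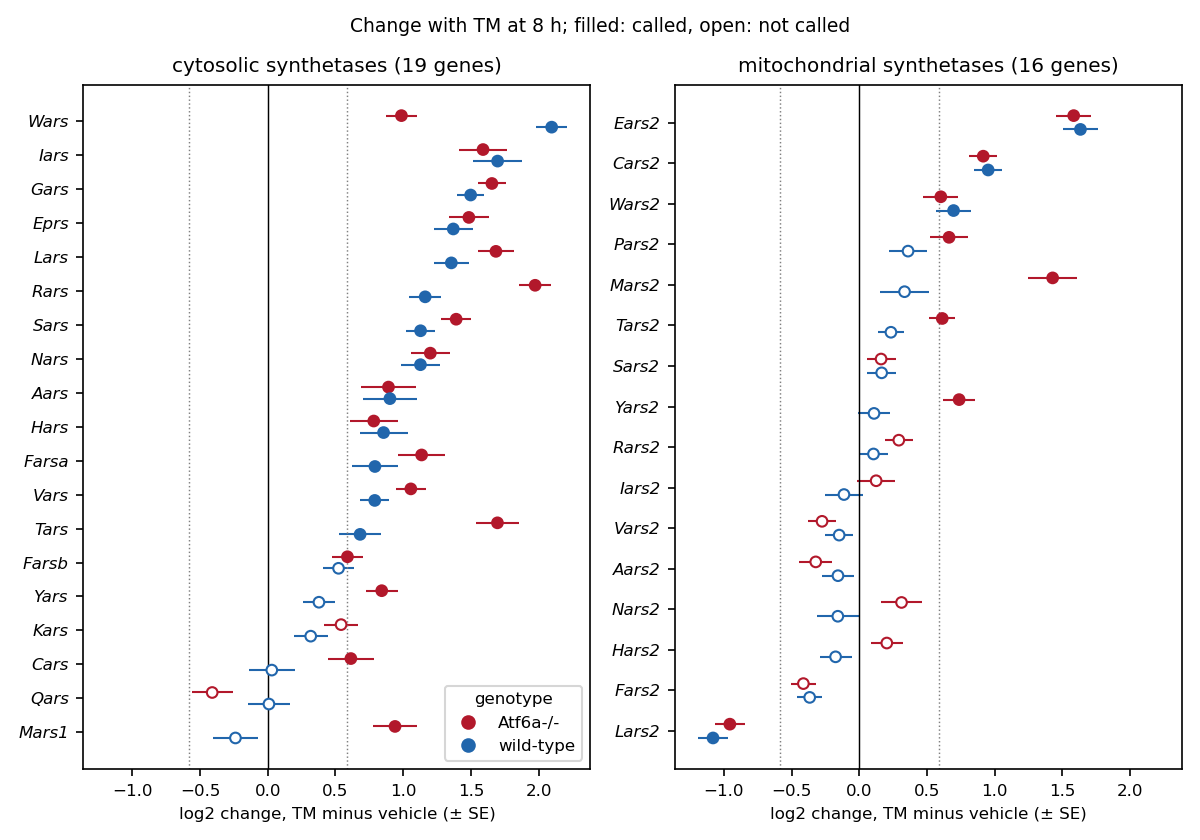
Change of each measured synthetase gene with TM (horizontal axis, log2 of TM over vehicle, with the standard error) in Atf6a-/- (red) and wild-type (blue) livers, cytosolic genes on the left and mitochondrial genes on the right. Filled points were called and dotted lines mark 1.5-fold; 17 and 13 of the 19 cytosolic genes are filled on the right side, against 7 and 3 of the 16 mitochondrial genes.

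*Wars*, which loads tryptophan, had the largest rise of all members in wild-type livers. It read 8.69, 8.85 and 8.69 in Atf6a-/- livers with TM, against 7.92, 7.88 and 7.47 with vehicle, and 9.78, 9.87 and 9.71 in wild-type livers with TM, against 7.68, 7.66 and 7.72 with vehicle. The change was 0.99 ± 0.12 (SE, adjusted p = 4.98e-05) in Atf6a-/- and 2.10 ± 0.12 (adjusted p = 2.28e-07) in wild-type livers, which is 1.98-fold and 4.28-fold. The TM arrays lay above the vehicle arrays in both genotypes, and those of wild-type livers with TM lay above all others.

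*Gars*, for glycine, rose about as far in either genotype. Its arrays read 10.53, 10.42 and 10.79 in Atf6a-/- livers with TM, against 8.97, 8.86 and 8.93 with vehicle, and 10.33, 10.50 and 10.39 in wild-type livers with TM, against 8.87, 8.93 and 8.92 with vehicle. The rise was 1.66 ± 0.10 (adjusted p = 4.99e-07) in Atf6a-/- and 1.5 ± 0.10 (adjusted p = 9.45e-07) in wild-type livers. The TM arrays of the genotypes overlapped.

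*Rars*, *Lars* and *Eprs* make the arginine, the leucine and the bifunctional glutamate and proline enzymes, all subunits of the multisynthetase complex that holds several synthetases together in the cytosol. *Rars* read 10.84, 10.85 and 11.10 in Atf6a-/- livers with TM, against 8.99, 8.94 and 8.94 with vehicle, and 10.21, 9.94 and 9.99 in wild-type livers with TM, against 8.70, 9.06 and 8.88 with vehicle. Its rise was 1.97 ± 0.12 (adjusted p = 3.93e-07) and 1.16 ± 0.12 (adjusted p = 2.1e-05). This was the largest rise in Atf6a-/- livers, at 3.93-fold, beside 2.24-fold in wild-type livers. *Lars* read 10.55, 10.45 and 10.68 in Atf6a-/- livers with TM, against 9.01, 8.77 and 8.85 with vehicle, and 10.03, 9.96 and 9.88 in wild-type livers with TM, against 8.29, 8.83 and 8.68 with vehicle. It rose by 1.68 ± 0.13 (adjusted p = 2.34e-06) in Atf6a-/- and 1.36 ± 0.13 (adjusted p = 1.63e-05) in wild-type livers, with TM arrays above vehicle arrays throughout. For *Eprs* the arrays read 11.90, 11.69 and 12.31 in Atf6a-/- livers with TM, against 10.46, 10.49 and 10.50 with vehicle, and 11.62, 11.78 and 11.73 in wild-type livers with TM, against 10.12, 10.38 and 10.52 with vehicle. Its rise of 1.49 ± 0.15 (adjusted p = 1.25e-05) and 1.37 ± 0.15 (adjusted p = 3.44e-05) again left no overlap between TM and vehicle.

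Among the synthetases outside the complex, *Sars* for serine read 10.78, 10.81 and 10.72 in Atf6a-/- livers with TM, against 9.34, 9.30 and 9.49 with vehicle, and 10.57, 10.38 and 10.25 in wild-type livers with TM, against 9.22, 9.45 and 9.15 with vehicle. It rose by 1.39 ± 0.11 (adjusted p = 2.57e-06) in Atf6a-/- and by 1.13 ± 0.11 (adjusted p = 1.7e-05) in wild-type livers. *Tars*, which loads threonine, stood apart from *Sars* in how unequal its rise was between genotypes. It read 11.53, 11.60 and 11.69 in Atf6a-/- livers with TM, against 9.82, 9.82 and 10.09 with vehicle, and 10.84, 10.91 and 10.76 in wild-type livers with TM, against 9.72, 10.34 and 10.40 with vehicle. The rise was 1.70 ± 0.16 (adjusted p = 7.7e-06) in Atf6a-/- and 0.68 ± 0.16 (adjusted p = 0.00823) in wild-type livers. The call in wild-type livers was lost without wild-type vehicle replicate 1, the lowest array of its group (0.47, under 1.5-fold, adjusted p = 0.0152). *Vars*, the valine enzyme, read 9.35, 9.08 and 9.20 in Atf6a-/- livers with TM, against 8.13, 8.23 and 8.11 with vehicle, and 8.89, 9.10 and 8.73 in wild-type livers with TM, against 8.04, 8.13 and 8.19 with vehicle. Its rise of 1.06 ± 0.11 (adjusted p = 1.82e-05) and 0.79 ± 0.11 (adjusted p = 0.000248) lay near the middle of the cytosolic members.

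The other cytosolic members had a smaller limma statistic, though not always a smaller change. *Iars* rose by 1.59 ± 0.18 in Atf6a-/- and 1.70 ± 0.18 in wild-type livers, the next after *Wars* in wild-type livers. *Iars* (isoleucine), *Nars* (asparagine), *Farsa* (a subunit of the phenylalanine enzyme), *Aars* (alanine) and *Hars* (histidine) were called higher in both genotypes, with changes from 0.78 to 1.59 in Atf6a-/- and from 0.79 to 1.70 in wild-type livers. *Mars1* (methionine, 0.94 and -0.24), *Yars* (tyrosine, 0.84 and 0.38), *Cars* (cysteine, 0.61 and 0.03) and *Farsb* (the other phenylalanine subunit, 0.59 and 0.52) were called in Atf6a-/- but not in wild-type livers, and of these *Mars1* alone passed the test of that difference given further on. *Farsb* in wild-type livers had an adjusted p of 0.0061 and missed the fold limit alone. *Cars* was not called without Atf6a-/- TM replicate 2 or vehicle replicate 1 or 2 in turn (0.48 to 0.59), and *Farsb* not without Atf6a-/- TM replicate 3 or vehicle replicate 2 or 3 (0.47 to 0.56). *Kars* (lysine) changed by 0.54 in Atf6a-/- livers, just under the fold limit at an adjusted p of 0.00677, and by 0.32 in wild-type livers (adjusted p = 0.115). *Qars* (glutamine) had -0.41 (adjusted p = 0.0639) and 0.01 (adjusted p = 0.981) on its brightest probeset.

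Calls were spread over the complex, the free enzymes and both structural classes of synthetase. Of the 7 measured members of the multisynthetase complex, 5 were called higher in Atf6a-/- and 4 in wild-type livers, with medians of 1.49 and 1.16, and of the 12 others 12 and 9, with medians of 1.02 and 0.82. Of the 9 class I enzymes, 8 and 5 were called higher, and of the 9 class II enzymes 8 and 7 (*Eprs* carries both classes). The scaffold proteins of the complex, which hold its enzymes, were also called. *Aimp1* rose by 0.76 ± 0.12 (adjusted p = 0.000599) in Atf6a-/- and 0.84 ± 0.12 (adjusted p = 0.000448) in wild-type livers, and *Aimp2* by 1.37 ± 0.21 (adjusted p = 0.000424) and 1.12 ± 0.21 (adjusted p = 0.00265), which together with *Eef1e1* made 3 of 3 called higher in Atf6a-/- and 2 of 3 in wild-type livers.

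Because cytosolic members moved together, their promoters were searched for the C/EBP-ATF response element, a composite site that ATF4 is known to bind with a C/EBP partner, and for the ER stress response element of ATF6. Windows of 300 bases, 250 before and 50 after the start of a gene, were taken from RefSeq (GRCm38.p6), and held 13 of the 20 cytosolic and 14 of the 16 mitochondrial members. The letters TGATGNAA, on either strand, were in 5 cytosolic members (*Aars*, *Gars*, *Iars*, *Tars* and *Yars*) and in 0 mitochondrial members, while 3.97% of 32851 windows held them. The other element, searched as CCAAT, any 9 bases and CCACG on either strand, was in 0 members and in 0.12% of windows, and the motifs overlapped in 0 windows. *Aars* held the letters both before and after its start. Shown are the 150 bases before the start of *Aars* (chr8:111033692-111033841, plus strand), *Gars* (chr6:55037851-55038000, plus strand), *Tars* (chr15:11399659-11399808, minus strand) and *Ears2* (chr7:122067087-122067236, minus strand), the mitochondrial member with the largest rise in both genotypes on the brightest probeset, and 30 bases around the match after the start of *Iars* (chr13:49682126-49682155, plus strand) and *Yars* (chr4:129189895-129189924, plus strand). Capitals mark the match.
Aars: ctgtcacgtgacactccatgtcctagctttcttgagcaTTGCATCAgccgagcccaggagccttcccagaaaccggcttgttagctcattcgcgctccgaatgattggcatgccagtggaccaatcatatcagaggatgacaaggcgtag
Gars: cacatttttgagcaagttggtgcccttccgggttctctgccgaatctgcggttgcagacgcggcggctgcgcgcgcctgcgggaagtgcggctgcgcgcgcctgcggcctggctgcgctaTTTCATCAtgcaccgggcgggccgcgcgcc
Tars: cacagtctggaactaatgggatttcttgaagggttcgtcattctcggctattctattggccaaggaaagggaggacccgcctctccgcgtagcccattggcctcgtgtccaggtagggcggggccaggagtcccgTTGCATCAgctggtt
Ears2: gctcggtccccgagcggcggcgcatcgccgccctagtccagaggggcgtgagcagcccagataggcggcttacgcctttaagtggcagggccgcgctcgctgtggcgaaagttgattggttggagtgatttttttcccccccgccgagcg
Iars: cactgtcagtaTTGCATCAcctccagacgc
Yars: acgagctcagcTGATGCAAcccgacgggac
The matches of *Iars* and *Tars* and that of *Aars* before its start read TTGCATCA, those of *Gars* and of *Aars* after its start TTTCATCA, and that of *Yars* TGATGCAA, which is TTGCATCA on the opposite strand. Of these 5 genes, 5 were called higher in Atf6a-/- and 4 in wild-type livers, where 17 and 13 of all 19 measured cytosolic members were. A match describes the letters only, and whether a factor bound there was not measured.

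Mitochondrial synthetases responded gene by gene. *Ears2*, which loads glutamate, had the largest rise among them on its brightest probeset. Its arrays read 8.57, 8.34 and 8.58 in Atf6a-/- livers with TM, against 7.03, 6.83 and 6.87 with vehicle, and 8.18, 8.33 and 8.29 in wild-type livers with TM, against 6.35, 6.88 and 6.66 with vehicle. The change was 1.58 ± 0.13 (adjusted p = 3.18e-06) and 1.63 ± 0.13 (adjusted p = 3.45e-06), about 3.00-fold and 3.10-fold. Its 3 dimmer probesets changed by less, and with all 4 averaged the change was 0.41 in Atf6a-/- livers, no longer called, and 0.60 in wild-type livers. *Cars2*, for cysteine, read 7.99, 8.19 and 8.15 in Atf6a-/- livers with TM, against 7.31, 7.16 and 7.12 with vehicle, and 7.95, 8.19 and 7.92 in wild-type livers with TM, against 6.99, 7.14 and 7.08 with vehicle. It rose by 0.91 ± 0.10 (adjusted p = 3.38e-05) and 0.95 ± 0.10 (adjusted p = 3.81e-05), although its cytosolic counterpart *Cars* changed by 0.61 and 0.03. With all *Cars2* probesets averaged the change in Atf6a-/- livers was 0.53, under the fold limit. *Wars2*, for tryptophan, read 6.33, 6.43 and 6.80 in Atf6a-/- livers with TM, against 5.91, 5.92 and 5.92 with vehicle, and 6.82, 6.79 and 6.48 in wild-type livers with TM, against 6.04, 5.89 and 6.08 with vehicle. Its rise of 0.60 ± 0.13 (adjusted p = 0.00388) and 0.70 ± 0.13 (adjusted p = 0.00215) was close to the fold limit, and the call in Atf6a-/- livers was lost without TM replicate 3 (0.46).

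*Lars2*, the mitochondrial leucine enzyme, was the only member called lower, in both genotypes, on the brightest of its 3 probesets. It read 6.30, 6.15 and 6.24 in Atf6a-/- livers with TM, against 7.36, 7.11 and 7.09 with vehicle, and 6.08, 6.32 and 6.19 in wild-type livers with TM, against 7.24, 7.15 and 7.45 with vehicle. It fell by 0.96 ± 0.11 (adjusted p = 4.51e-05) in Atf6a-/- and by 1.08 ± 0.11 (adjusted p = 2.64e-05) in wild-type livers. Averaged over its probesets the change was -0.42 and -0.40, not called in either genotype. Its cytosolic counterpart *Lars* rose by 1.68 and 1.36.

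A further 4 mitochondrial members were called higher in Atf6a-/- but not in wild-type livers, and none of them passed limma's test of the difference in response. *Mars2* (methionine) read 4.80, 4.46 and 5.39 in Atf6a-/- livers with TM, against 3.63, 3.41 and 3.33 with vehicle, and 3.95, 3.99 and 4.04 in wild-type livers with TM, against 3.60, 3.59 and 3.78 with vehicle. *Yars2* (tyrosine) read 7.98, 7.77 and 8.03 in Atf6a-/- livers with TM, against 7.19, 7.06 and 7.32 with vehicle, and 7.47, 7.40 and 7.45 in wild-type livers with TM, against 7.08, 7.45 and 7.46 with vehicle. In both genes the Atf6a-/- arrays with TM lay above the other 9 arrays, and *Mars2* was dim, with a mean of 4.0 where the median of all probesets was 5.05. *Pars2* (proline) read 7.84, 7.41 and 7.40 in Atf6a-/- livers with TM, against 6.91, 7.05 and 6.71 with vehicle, and 7.40, 7.64 and 7.33 in wild-type livers with TM, against 7.11, 6.96 and 7.22 with vehicle. *Tars2* (threonine) read 8.47, 8.68 and 8.59 in Atf6a-/- livers with TM, against 8.03, 7.99 and 7.88 with vehicle, and 8.37, 8.21 and 8.20 in wild-type livers with TM, against 7.91, 8.15 and 8.00 with vehicle. Their TM arrays also lay above their vehicle arrays in wild-type livers, by less. The changes in Atf6a-/- and wild-type livers were 1.43 and 0.33 for *Mars2*, 0.74 and 0.11 for *Yars2*, 0.66 and 0.36 for *Pars2*, and 0.61 and 0.23 for *Tars2*, with adjusted p in Atf6a-/- livers from 9.47e-05 to 0.0036 and in wild-type livers from 0.105 to 0.621. *Pars2* lost its call without Atf6a-/- TM replicate 1 or vehicle replicate 3 in turn (0.52 and 0.57), and *Tars2* without TM replicate 2 or vehicle replicate 3 (0.56 and 0.57). With the probesets of a gene averaged, *Yars2* (0.47) and *Tars2* (0.45) were not called in Atf6a-/- livers. The other 8 mitochondrial members (*Aars2*, *Fars2*, *Hars2*, *Iars2*, *Nars2*, *Rars2*, *Sars2* and *Vars2*) were not called, with changes from -0.41 to 0.31 in Atf6a-/- and from -0.37 to 0.16 in wild-type livers. *Fars2* was at -0.41 (adjusted p = 0.00501) and -0.37 (adjusted p = 0.0144), below the fold limit.

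**Figure D2:**
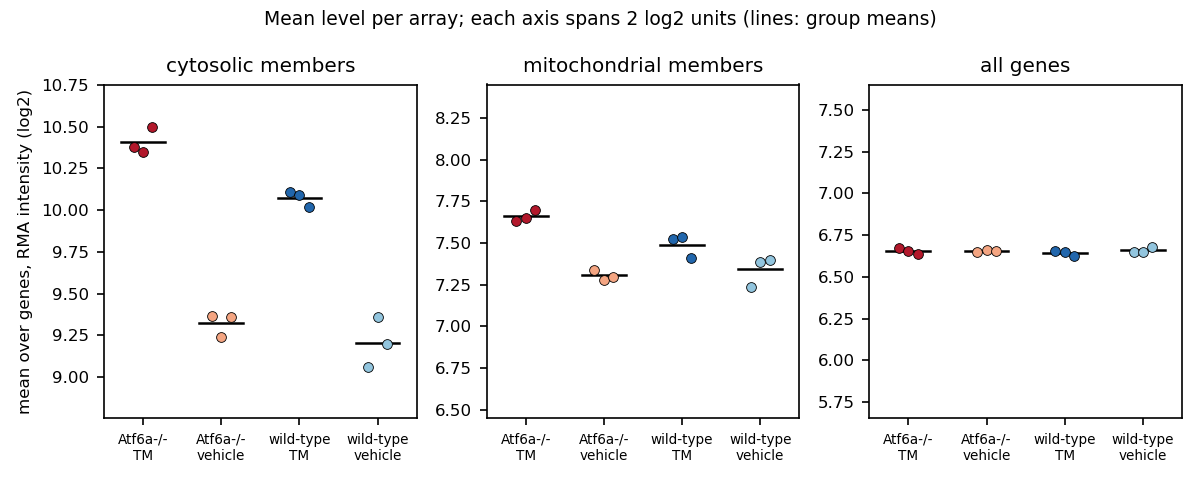
Mean log2 RMA intensity per array (points) and per group (lines) over the 19 cytosolic members, the 16 mitochondrial members and all 18193 genes, for Atf6a-/- TM, Atf6a-/- vehicle, wild-type TM and wild-type vehicle from left to right; each vertical axis spans 2 log2 units. The cytosolic mean is 10.41 in Atf6a-/- livers with TM and 10.07 in wild-type livers with TM, above every vehicle array, while the mean over all genes stays between 6.63 and 6.68.

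The mean over the cytosolic members was 10.41 ± 0.08 in Atf6a-/- livers with TM and 9.32 ± 0.07 with vehicle, and 10.07 ± 0.05 in wild-type livers with TM and 9.21 ± 0.15 with vehicle (SD, n = 3 each). Over the mitochondrial members it was 7.66 ± 0.03 in Atf6a-/- livers with TM and 7.31 ± 0.03 with vehicle, and 7.49 ± 0.07 in wild-type livers with TM and 7.34 ± 0.09 with vehicle. The 3 TM arrays of either genotype lay above its vehicle arrays for both means. Among TM arrays, the lowest Atf6a-/- value exceeded the highest wild-type value, at 10.35 against 10.11 for cytosolic and 7.63 against 7.54 for mitochondrial members.

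Setting genes for the same amino acid against each other gave 17 pairs of 16 cytosolic and 16 mitochondrial members, with *Farsa* and *Farsb* sharing *Fars2*, and *Ears2* and *Pars2* sharing *Eprs*. The cytosolic change was the larger in 14 of 17 pairs in both genotypes, by a median of 1.00 in Atf6a-/- and 1.01 in wild-type livers. Taken within each array, the cytosolic minus mitochondrial difference was higher on every TM array than on every vehicle array in 11 pairs in Atf6a-/- and 14 pairs in wild-type livers. It was lower in 0 pairs in Atf6a-/- livers and in 3 in wild-type livers, *Cars* with *Cars2*, *Eprs* with *Ears2* and *Mars1* with *Mars2*. The share over other pairs of genes was not computed. Of all single genes, the TM arrays lay wholly above in 20.8% and wholly below in 29.6% in Atf6a-/- livers. In wild-type livers these shares were 16.8% and 22.5%. On the brightest probesets leucine had the largest gap between the changes (2.64 in Atf6a-/- and 2.44 in wild-type livers), followed in Atf6a-/- livers by arginine (1.68) and in wild-type livers by isoleucine (1.81). The gaps were smallest in tyrosine, at 0.10 and 0.27, and in glutamate, at -0.10 and -0.26. With the probesets of each gene averaged, the cytosolic change was the larger in 16 of 17 pairs in Atf6a-/- and 15 of 17 in wild-type livers. These averages take in dimmer probesets. Some of them changed less than the brightest, in both compartments, and some changed more. Those of *Ears2* (means of 4.64 to 5.95), *Mars2* (3.10) and *Farsa* (3.92 to 5.58) changed less. The dimmer probesets of *Iars* and *Nars* rose further than the brightest in both genotypes. The gap of isoleucine in wild-type livers went from 1.81 to 1.95. The gap of leucine was then 2.11 and 1.76, below that of isoleucine in wild-type livers (1.95), and the gaps of glutamate (1.04 and 0.64) and, in Atf6a-/- livers, of methionine (0.14) turned direction.

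**Figure D3:**
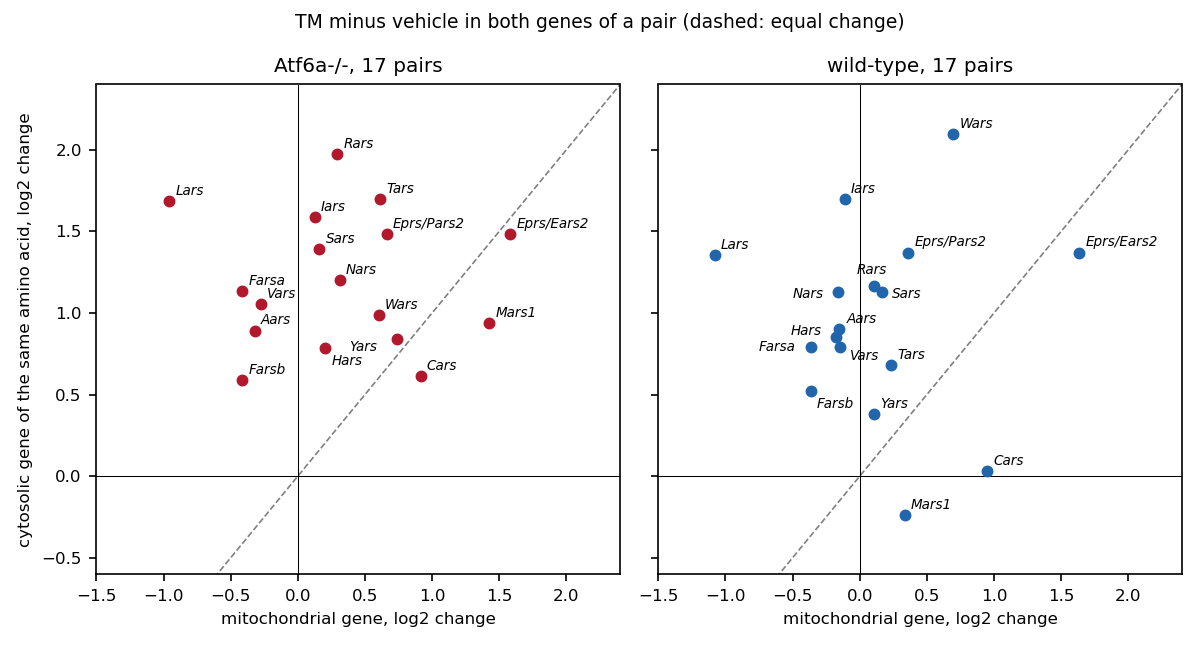
Change with TM of the cytosolic gene (vertical axis, log2) against that of the mitochondrial gene for the same amino acid (horizontal axis, log2) in Atf6a-/- livers on the left and wild-type livers on the right; points carry the cytosolic symbol, and the dashed line marks equal change. On these brightest probesets 14 of 17 pairs lie above the line, and *Cars*, *Mars1* and the pair of *Eprs* and *Ears2* lie below it in both panels.

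Between the genotypes the question is whether the lack of ATF6α alters these responses. With vehicle, 0 of 35 members were called in either direction by limma, as for all genes (0% higher and 0% lower), and at an unadjusted p under 0.05 1 of 35 members passed, a cytosolic member that was higher, beside 1.8% of all genes higher and 2.07% lower. The median difference was 0.14 for cytosolic and -0.07 for mitochondrial members. *Aars* was called by limma, at 0.80 (adjusted p = 0.0499), when wild-type vehicle replicate 2 was left out. That array, the one of its group with Y-linked signal, read 11.65 for this gene where the others read 10.63 and 10.94. With TM, 4 cytosolic members were called higher in Atf6a-/- than in wild-type livers and 1 lower, and 1 mitochondrial member was called higher and 0 lower, beside 2.89% of all genes higher and 1.53% lower. The TM arrays of Atf6a-/- livers all lay above those of wild-type livers in 10 of 19 cytosolic and 6 of 16 mitochondrial members, as they did in 13.4% of all genes, and all below in 1 and 1, as in 10.2% of all genes. The medians were 0.30 and 0.13.

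*Mars1*, *Rars*, *Tars* and *Lars* were the cytosolic members higher in Atf6a-/- livers with TM. *Mars1*, for the methionine enzyme, read 10.50, 10.42 and 10.57 in Atf6a-/- livers with TM, against 9.52, 9.32 and 9.82 with vehicle, and 9.06, 8.90 and 9.14 in wild-type livers with TM, against 9.09, 9.67 and 9.06 with vehicle. With TM it was 1.46 ± 0.16 higher in Atf6a-/- livers (adjusted p = 0.000338, 2.76-fold), and in wild-type livers TM arrays overlapped vehicle arrays. *Rars* was 0.88 ± 0.12 higher (adjusted p = 0.000961), *Tars* 0.77 ± 0.16 (adjusted p = 0.0143) and *Lars* 0.61 ± 0.13 (adjusted p = 0.0204), each without overlap between the genotypes. Each of these genes was measured by 1 probeset only. The calls of *Mars1* and *Rars* held when any array was left out. That of *Tars* was lost without Atf6a-/- TM replicate 3 or wild-type TM replicate 3 in turn (0.73 both times, adjusted p of 0.0528 and 0.0629), and that of *Lars* without Atf6a-/- TM replicate 1 or 3 or wild-type TM replicate 2 or 3 (0.55 to 0.61, with adjusted p between 0.0646 and 0.0848). In the RefSeq annotation *Mars1* overlaps its neighbour *Ddit3*, which encodes the stress factor CHOP. With TM *Ddit3* was lower in Atf6a-/- than in wild-type livers (-1.0 ± 0.10, adjusted p = 0.000199). From vehicle to TM, *Ddit3* rose by 6.13 in Atf6a-/- and 6.79 in wild-type livers, where *Mars1* changed by 0.94 and -0.24. Whether the overlap bears on the *Mars1* values was not tested.

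*Wars* went the other way. With TM it was lower in Atf6a-/- livers by 2.06-fold (-1.04 ± 0.12, adjusted p = 0.000313), and its 3 arrays there lay between those with vehicle and those of wild-type livers with TM. The 4 probesets of *Wars* gave differences from -1.24 to -0.90, all called lower. *Mars2* was the mitochondrial member called higher in Atf6a-/- livers with TM, by 0.89 ± 0.18 (adjusted p = 0.0157). That call was lost when any 1 of the 3 wild-type TM arrays was left out (0.87 to 0.91, with adjusted p between 0.0516 and 0.0643), and the spread of 4.46 to 5.39 over its Atf6a-/- arrays was wide. The dimmer *Mars2* probeset, at a mean of 3.10, had a difference of -0.0042 (adjusted p = 0.994). With both averaged the difference was 0.44 (adjusted p = 0.0696), not called. *Yars2* had a difference of 0.49 (adjusted p = 0.0369) that stayed under the fold limit.

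**Figure D4:**
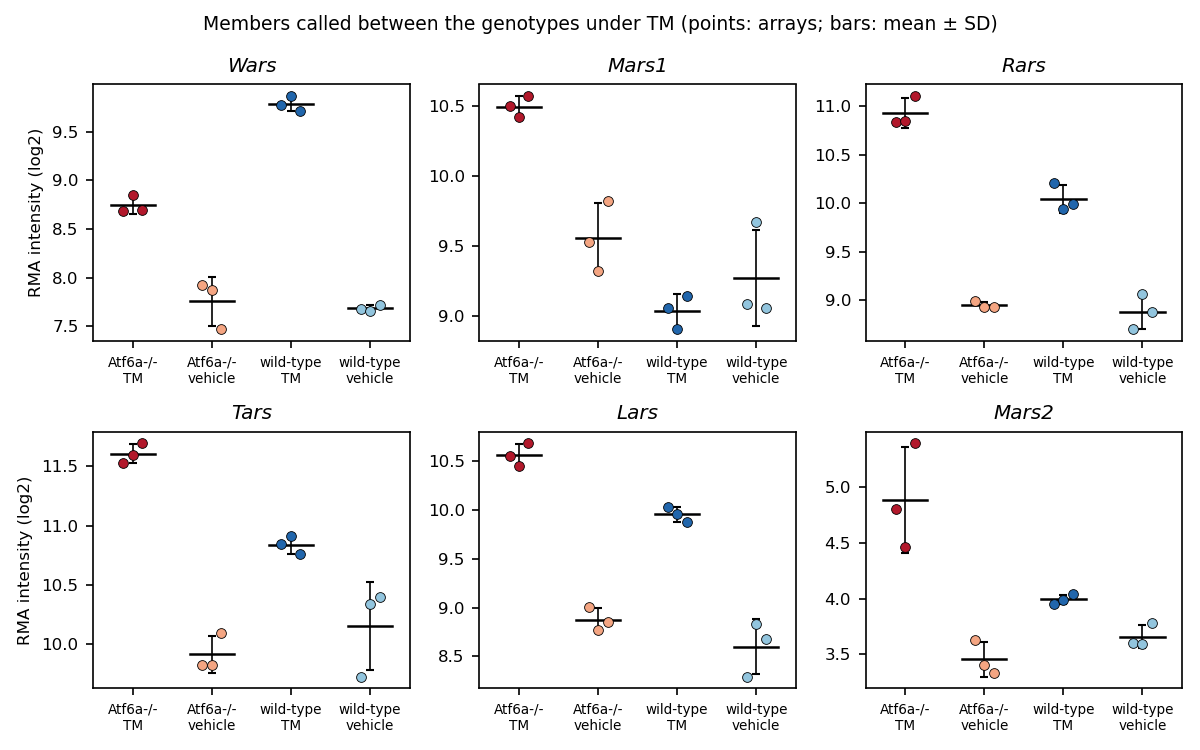
Log2 RMA intensity (vertical axis, a scale of its own in each panel) of the 6 members called between the genotypes with TM, with points for arrays and bars for the mean and SD of 3 arrays in each of the 4 groups. *Wars* is highest in wild-type livers with TM, at 9.71 to 9.87, and the other 5 in Atf6a-/- livers with TM, as for *Mars1* at 10.42 to 10.57.

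The response to TM in Atf6a-/- livers minus that in wild-type livers, tested over all 4 groups, was called for 3 cytosolic members as higher and 1 as lower in Atf6a-/- livers, beside 1.06% and 0.748% of all genes. It uses the same arrays as the comparisons above and is no separate evidence. The response of *Mars1* was larger in Atf6a-/- livers by 1.18 ± 0.23 (adjusted p = 0.0303), that of *Tars* by 1.01 ± 0.22 (adjusted p = 0.0476) and that of *Rars* by 0.81 ± 0.16 (adjusted p = 0.0342). The response of *Wars* was smaller, with a difference of -1.11 ± 0.16 (adjusted p = 0.00672). Of these, the call of *Wars* alone held when any array was left out. *Mars1* lost it without any of 7 arrays in turn (adjusted p from 0.0532 to 0.0961), *Rars* without any of 9 (0.0545 to 0.106) and *Tars* without any of 11 (0.0525 to 0.13). The size of the differences over those fits stayed at 1.06 to 1.23 for *Mars1*, 0.72 to 0.86 for *Rars* and 0.89 to 1.11 for *Tars*. No mitochondrial member was called by limma. At an unadjusted p under 0.05, 5 of 16 mitochondrial members were higher and 0 lower, and 5 of 19 cytosolic members higher and 1 lower. The shares over all genes were 8.94% higher and 5.4% lower. Of the mitochondrial members *Mars2* came closest to a call (1.09 ± 0.26, adjusted p = 0.0689). For members that rose in both genotypes the 95% interval of the difference in response ran from -0.15 to 0.47 for *Gars*, -0.33 to 0.56 for *Eprs*, -0.66 to 0.45 for *Iars* and -0.45 to 0.35 for *Ears2*, and for *Lars2*, which fell in both, from -0.22 to 0.47.

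Several probesets were available for 23 of the 35 members, 72 probesets in all, of which 61 were brighter than the median of all probesets. They gave differing calls for TM in 11 members in Atf6a-/- and 7 members in wild-type livers. The 4 *Wars* probesets were called higher in both genotypes, at 0.59 to 1.41 in Atf6a-/- and 1.84 to 2.66 in wild-type livers. *Qars* was not called on its brightest probeset, yet the next in brightness rose by 0.85 in Atf6a-/- and 1.17 in wild-type livers and another by 0.61 and 0.94, all called. Both other bright *Farsb* probesets were called in both genotypes (0.92 and 0.69 in Atf6a-/-, 0.78 and 0.76 in wild-type livers). The suffixes _s_at, _x_at and _a_at mark, in different ways, probesets whose probes are not unique to 1 transcript. The brightest probesets of *Wars*, *Qars* and *Farsb* end in _x_at. The dimmer probesets of *Farsa* were not called, and the brightest of them, whose name carries none of these suffixes, gave 0.0067 and 0.027. The fall of *Lars2* was seen on its brightest probeset alone, as the next had -0.21 and -0.22, neither called, and the third, at a mean of 3.52, had -0.11 and 0.09. Of the 3 dimmer *Ears2* probesets, 0 were called in Atf6a-/- livers (-0.25 to 0.29) and 1 in wild-type livers, where they had -0.11 to 0.60. A probeset that the annotation gives to both *Aars* and *Exosc6* was left out of the member counts. It rose by 1.38 in Atf6a-/- livers (called) and had 0.35 in wild-type livers (not called), where the 2 probesets of *Aars* alone gave 0.80 to 0.89 and 0.88 to 0.90.

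**Figure D5:**
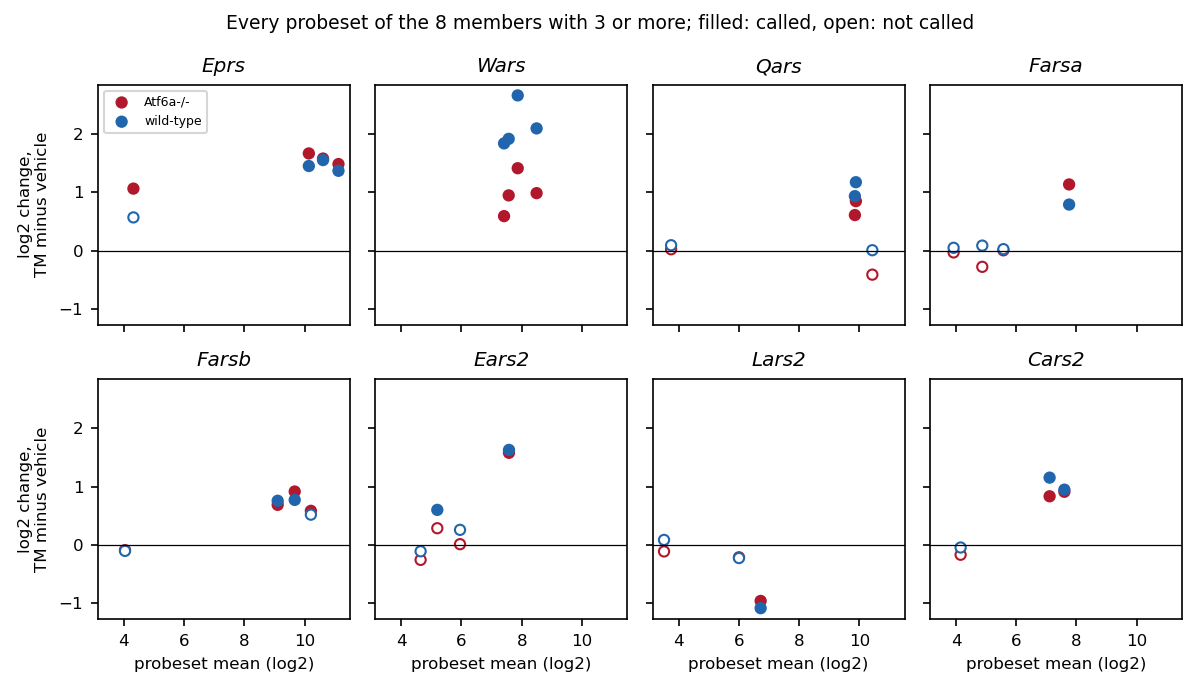
Change with TM (vertical axis, log2) of every probeset against its mean over all arrays (horizontal axis, log2) for the 8 members with 3 or more probesets, in Atf6a-/- (red) and wild-type (blue) livers, with filled points called. All 4 probesets of *Wars* are filled, while *Qars* and *Lars2* differ between their brightest probeset and the next in brightness.

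Other genes of tRNA charging and translation were set beside the synthetases. *Xpot*, which exports tRNA from the nucleus, rose by 1.39 ± 0.13 (adjusted p = 8.13e-06) in Atf6a-/- and 1.24 ± 0.13 (adjusted p = 2.89e-05) in wild-type livers, and *Prorsd1*, of a family of tRNA editing proteins, by 0.85 ± 0.13 (adjusted p = 0.000294) and 0.65 ± 0.13 (adjusted p = 0.00293). Of the 5 genes of tRNA editing and export, 3 were called higher in Atf6a-/- and 2 in wild-type livers. Cytosolic elongation factors, which serve the lengthening of the protein at the ribosome, were not called in either genotype (0 of 4), with 0.23 and 0.15 for *Eef1b2* and 0.26 and 0.13 for *Eef2*. Among 9 mitochondrial translation factors, 1 was called higher and 1 lower in each genotype. The gene called lower in Atf6a-/- livers was *Mtfmt* (-0.62 ± 0.17, adjusted p = 0.0159). *Mtrf1l*, a mitochondrial release factor, rose by 1.46 ± 0.12 (adjusted p = 2.9e-06) and 0.65 ± 0.12 (adjusted p = 0.00188), with a larger response in Atf6a-/- livers (0.81 ± 0.17, adjusted p = 0.036), and the elongation factor *Gfm1* had -0.34 in Atf6a-/- livers, not called, and fell by 0.60 ± 0.12 (adjusted p = 0.00347) in wild-type livers. Of the 3 subunits of the mitochondrial amidotransferase that turns glutamate on its tRNA into glutamine, *Gatc* rose by 1.09 ± 0.15 in both genotypes (adjusted p of 0.000191 and 0.000307), while *Gatb* had -0.31 and -0.42 and was not called.

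As reference points, the genes of the ATF4 response were called higher in 15 of 20 in Atf6a-/- and 13 of 20 in wild-type livers, with medians of 1.95 and 2.13. *Ddit3* rose by 6.13 ± 0.10 (adjusted p = 1.01e-11) and 6.79 ± 0.10 (adjusted p = 2.87e-12), and *Atf3*, a stress-induced transcription factor, by 7.13 ± 0.16 (adjusted p = 1.4e-10) and 5.58 ± 0.16 (adjusted p = 9.87e-10). Between the genotypes with TM this list had 5 genes higher and 2 lower of 20. The ATF6 targets were called higher in 12 of 15 in Atf6a-/- and 15 of 15 in wild-type livers, and 10 of 15 were lower and 0 higher in Atf6a-/- than in wild-type livers with TM. *Sel1l* and *Syvn1*, parts of the complex that sends ER proteins to degradation, had genotype differences with TM of -1.68 ± 0.11 (adjusted p = 3.76e-06) and -1.47 ± 0.16 (adjusted p = 0.00024). Of the 35 synthetase members, *Wars* alone was called lower in this comparison.

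Markers of other liver cells were checked because the RNA came from homogenate. With TM, the Kupffer cell markers *Adgre1* and *Csf1r* were called lower in Atf6a-/- livers, of 5, and 0 in wild-type livers. The summed level of that list was 11.73 to 12.32 in Atf6a-/- livers with TM and 12.30 to 12.93 with vehicle, and 12.33 to 12.53 in wild-type livers with TM and 12.21 to 13.16 with vehicle. Of 5 stellate cell markers *Lrat* was called lower in both genotypes, of 5 endothelial markers *Lyve1* was called higher in Atf6a-/- and *Kdr* lower in wild-type livers, of 4 cholangiocyte markers *Krt19* was called lower in Atf6a-/- livers, and of 3 markers of proliferating cells *Cdk1* was called lower in both genotypes and *Top2a* lower between the genotypes with TM. The lists for T and B cells (3 measured), erythroid cells (3) and pancreatic acinar cells (5) had 0 calls with TM in either genotype and 0 between the genotypes. The summed level of acinar markers was 7.90 to 8.08 in Atf6a-/- livers with TM and 8.21 to 8.36 with vehicle, without overlap, and 7.94 to 8.25 in wild-type livers with TM and 8.02 to 8.28 with vehicle, with overlap. The summed level was lower on every TM array than on every vehicle array of its genotype for cholangiocyte markers (7.48 to 7.63 in Atf6a-/- livers with TM and 7.68 to 7.99 with vehicle, 7.61 to 7.71 in wild-type livers with TM and 7.81 to 7.90 with vehicle) and for T and B cell markers (6.87 to 7.07 in Atf6a-/- livers with TM and 7.25 to 7.36 with vehicle, 6.96 to 7.08 in wild-type livers with TM and 7.20 to 7.61 with vehicle). Markers of proliferating cells were at 6.29 to 6.71 in Atf6a-/- livers with TM and 6.74 to 7.22 with vehicle, and at 6.74 to 7.32 in wild-type livers with TM and 7.02 to 7.92 with vehicle. The part of these shifts in the synthetase values was not tested.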

How the data were processed

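Liver RNA of 12 mice was hybridised to 1-colour Affymetrix mouse arrays. The authors made the deposited log2 values by RMA, which the labels name beside the affy and limma packages. RMA subtracts background, quantile-normalizes across arrays and combines probes into 1 value per probeset, which can understate large changes. Their versions are not stated.

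The array holds 45101 probesets. Without the 64 controls, 45037 were tested. The platform annotation names 1 gene for 34945, several for 932 and none for 9160. R 4.3.3 and limma 3.58.1 were used, with lmFit and eBayes on all 12 arrays, 1 mean per group and 5 contrasts, p-values adjusted by Benjamini-Hochberg over all probesets, and calls required both an adjusted p below 0.05 and a change above 1.5-fold. Arrays have no read depth, so precision rests on their number. With 3 against 3, an exact permutation test cannot go below p = 0.1. The labels name separate animals.

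Values of every array are given for the 8 cytosolic members with the largest limma statistic for TM in either genotype, the mitochondrial members called in any contrast and the members called between genotypes or in the difference of responses, and of each related list the 2 genes with the largest statistic in wild-type livers are named. Other genes were named after their values were seen. The lists were the scaffold proteins of the multisynthetase complex, cytosolic elongation factors, mitochondrial translation factors, the amidotransferase, tRNA editing and export, the ATF4 response, ATF6 targets and markers of 9 cell types. Members and lists were chosen with earlier results of these data known. A list is described by counts and medians, with no test. The fit was tested on simulated data. Same-numbered animals did not deviate together (6 of 18 same-number pairs had a correlation over 0.1), so the replicate number was not a block.

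Alternatives were quantile normalization, centring on *Btf3* and *Ppia* (*Ppia* on a probeset shared with a predicted gene), a replicate block, Y-linked signal minus *Xist* as covariate, eBayes with trend and robust estimation, separate fits per contrast, no or a 2-fold threshold, averaging a gene's probesets, dropping those whose names end in _s_at, _x_at or _a_at, keeping only probesets above the median brightness, the methods' t-test with and without adjustment, and leaving out each array. A fit that drops the 4 Y-positive arrays was added after the values were seen.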

Additional observations from a re-analysis of the deposited data

Results flagged for a closer look

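The response to TM differed between the genotypes, by limma's test of the difference itself, in 4 of the 35 members. It was larger in Atf6a-/- than in wild-type livers for *Mars1* (1.18 on the log2 scale), *Tars* (1.01) and *Rars* (0.81). It was smaller for *Wars*, with a difference of -1.11. Of all genes, 1.06% were called higher and 0.748% lower in this difference. The calls of *Mars1*, *Rars* and *Tars* were lost when any of 7, 9 and 11 arrays was left out in turn, and that of *Wars* held whichever of the 12 was left out.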

How the results depend on the processing

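Over 26 alternative settings, 462 of 508 counts of called members stayed within 1.5 times those reported. A reported count of 0 that stayed at 0 was included as unchanged, so this share is higher than over the other counts alone. Of the 52 member calls, 19 held in all settings. Among single members 1 of 1334 values turned direction, *Farsb* in Atf6a-/- livers, at -0.085 (adjusted p = 0.70) on its only probeset whose name does not end in _s_at, _x_at or _a_at. The median change of mitochondrial members with TM ran from 0.11 to 0.39 in Atf6a-/- and from 0.0043 to 0.15 in wild-type livers. That of cytosolic members ran from 0.91 to 1.11 and from 0.75 to 1.03. Between the genotypes with TM the mitochondrial median ran from 0.046 to 0.19.

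The shares over all genes given above hold for the reported fit and were not computed for the settings that follow. A drop in the counts below therefore cannot be set against the drop over all genes. With a 2-fold threshold, TM raised 10 cytosolic and 2 mitochondrial members in Atf6a-/- livers and 8 and 1 in wild-type livers. In Atf6a-/- livers 0 mitochondrial members were then lower. Between the genotypes with TM 1 cytosolic and 0 mitochondrial members were higher. With no fold threshold, 2 mitochondrial members were lower with TM in either genotype and 2 higher between the genotypes. When a gene's probesets were averaged, 3 mitochondrial members were higher with TM in Atf6a-/- livers, 0 lower in either genotype and 0 higher between the genotypes, with *Lars2* at -0.42 and -0.40. Quantile normalization left 3 and the methods' t-test after Benjamini-Hochberg 4 mitochondrial members higher in Atf6a-/- livers, and by that t-test 0 cytosolic members were higher, 0 lower and 0 mitochondrial higher between the genotypes with TM. Separate fits per contrast, and probesets above the median brightness, also left 0 mitochondrial members there. In the difference of responses, 1 mitochondrial member, *Mars2*, was called after centring on *Btf3* and *Ppia*, with the Y-linked covariate, and with trend and robust estimation (adjusted p = 0.0352, 0.0312 and 0.0499 by limma). Without the 4 Y-positive arrays, 1 cytosolic member was called higher in that difference and 1, *Qars*, lower with TM in Atf6a-/- livers (-0.63, adjusted p = 0.00675), and the differences of *Tars* (adjusted p = 0.118) and *Rars* (0.0649) missed the threshold, as did *Rars* after centring (0.0517).

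Leaving out each array in turn gave 2 to 5 cytosolic and 0 to 1 mitochondrial members higher between the genotypes with TM, 0 to 1 cytosolic with vehicle, and 0 to 3 cytosolic and 0 to 1 mitochondrial in the difference of responses. With the replicate block, 1 cytosolic member was called higher in that difference, as *Mars1* (adjusted p = 0.0599) and *Rars* (0.0681) missed the threshold; same-numbered animals did not deviate together, and 5 of 12 arrays correlated best with their own number. The cause of these changes was not tested. The difference of responses was not run for the separate fits and t-tests. *Mars2* lay below the median brightness and was not tested among brighter probesets.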
